A study of Mus musculus with 40 samples.

Results

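Dendritic cell homing chemokines and receptors are described here in the lungs of mice (SWR/J or A/J) that had received NTCU (N-nitrosotris-(2-chloroethyl)urea) or vehicle. NTCU is a carcinogen that gives airway dysplasia and squamous cell carcinoma when painted on the skin. The 9 genes are Ccl22, Ccl17, Ccr7, Ccr4, Ccl19, Flt3, Itgax, Batf3 and Xcr1, of 37310 genes in the table. They were chosen by name with their levels by dysplasia grade, sample source and strain already in view, so their levels and fitted differences are given as a description, with no p. In each of the 5 comparisons below, the number of the 9 that was called is printed beside the share of all genes called, and nothing is read from it. With a prior count of 2 in log2 CPM all 9 passed the filter on low values, among 15630 genes tested. With a prior count of 0.25, 14897 genes passed and Ccr4 did not.

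RNA sequencing was done on 40 samples, and the 25 that carry the label for passed quality control were compared. The mice were female by the study's reporting, and their age at sampling is not given in the sources used here. Of the 25, 7 samples were graded normal and came from mice given the acetone vehicle with no NTCU. They were 3 laser capture microdissected (LCM) samples (A/J samples 46 and SM1, SWR/J sample 2B) and 4 whole lung sections (A/J sample 81, SWR/J samples 70, 71 and 72). The 5 samples of mild dysplasia were all from SWR/J mice that had received 15 µmol NTCU in total (LCM samples 5, 7 and 7c, whole lung samples 73 and 74). The 9 samples of moderate to severe dysplasia came from A/J mice at 14 µmol (LCM samples 47 and 48, whole lung sample 82) and from SWR/J mice at 25 µmol (LCM sample 45, whole lung sample 78) or 30 µmol (LCM samples 40 and 41, whole lung samples 75 and 76). Severe dysplasia was represented by 2 SWR/J samples at 50 µmol (LCM sample 42, whole lung sample 79). An A/J squamous cell carcinoma (SCC, LCM sample 49) and an A/J carcinoma in situ (whole lung sample 84), both at 20 µmol, completed the set. The samples of moderate to severe dysplasia, severe dysplasia, carcinoma in situ and SCC were joined as 13 high-grade samples. Within each strain grade moves together with dose, so that the 2 cannot be told apart, and no A/J sample had mild dysplasia. The written description of mild dysplasia sample 7c calls it normal, and that of normal sample SM1 calls it mild dysplasia. The grade label was used for both. The labels do not say which samples share an animal, so each SD or p-value below measures the spread between samples.

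Dendritic cells take up antigen in the airway wall, mature, and migrate to the draining lymph node, where they present antigen to T cells. Maturation switches on CCR7, the receptor that follows CCL19 and CCL21 into lymphoid tissue, and naive T cells and B cells carry the same receptor. CCL22 and CCL17 are made by mature dendritic cells and some macrophages and epithelial cells, and both bind CCR4, a receptor of helper, regulatory and skin-homing T cells. FLT3 is the growth factor receptor of dendritic cell precursors, BATF3 a transcription factor that type 1 conventional dendritic cells (cDC1) need, and XCR1 the chemokine receptor that marks them. ITGAX is the CD11c integrin chain, a marker of dendritic cells that mouse alveolar macrophages also carry.

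Ccl22 and Ccl17 lie close to each other on chromosome 8 (mm9, NCBIM37), Ccl22 at chr8:97269490-97275599 and Ccl17 at chr8:97334353-97335935, both on the plus strand. They are 58753 bases apart, with 1 protein-coding gene (Cx3cl1) between them. Because the 2 neighbouring ligands of the same receptor differed in their pattern over the samples, the 250 bases before each start are shown (RefSeq, GRCm38.p6, plus strand, 5′ to 3′). Capitals mark every match, on either strand, to the motifs searched: an NF-kB type (GGGNNNNNCC), a STAT6 type (TTCNNNNGAA), a STAT type (TTCNNNGAA), an AP-1 type (TGANTCA), the PU.1 core (GAGGAA) and a TATA box (TATAAA). The Ccl22 sequence is chr8:94745434-94745683 and the Ccl17 sequence chr8:94810203-94810452.
Ccl22: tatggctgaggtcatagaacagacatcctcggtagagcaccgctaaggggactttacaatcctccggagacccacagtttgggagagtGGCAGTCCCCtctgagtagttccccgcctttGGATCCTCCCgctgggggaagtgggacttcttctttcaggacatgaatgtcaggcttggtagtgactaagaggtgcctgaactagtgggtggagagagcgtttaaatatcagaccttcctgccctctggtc
Ccl17: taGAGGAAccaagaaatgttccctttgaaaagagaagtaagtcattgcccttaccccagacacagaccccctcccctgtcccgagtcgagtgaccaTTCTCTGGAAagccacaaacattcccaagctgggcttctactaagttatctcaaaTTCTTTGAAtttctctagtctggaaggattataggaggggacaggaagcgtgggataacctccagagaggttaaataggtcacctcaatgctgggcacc
The Ccl22 window held the NF-kB type letters at 162 and 131 bases before the start and no match to the other 5 motifs. Those letters stand in 45.8% of 32851 promoters of the same length. The Ccl17 window held the STAT6 type letters at 154 bases before the start (5.85% of promoters), the STAT type letters at 99 (7.02%) and the PU.1 core at 248 (23.3%), and no NF-kB type match. The matches in these windows do not overlap each other. These are letter matches alone, binding was not measured, and a link between them and the levels of the 2 genes was not tested. Of the 9 genes, 8 had a promoter sequence in the reference used, and Ccr7 did not.

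Expression is given as log2 CPM, the log2 of the count relative to the TMM-scaled library size, with a prior count of 2. On this scale a count of 0 is −2.22. Per base of exon (RPKM, which divides by exon length and library size), Ccl17 had the highest median over the 25 samples at 9.58 RPKM, followed by Ccr7 at 7.66, Ccl22 at 4.76, Ccl19 at 2.93, Batf3 at 2.83, Itgax at 2.68, Xcr1 at 0.715, Flt3 at 0.435 and Ccr4 at 0.354. The ranges of neighbours in this order overlapped, and Ccl17 exceeded Ccr7 in 15 of 25 samples. Batf3 exceeded Itgax in only 8 of 25, although its median was the higher. The step from Itgax to Xcr1 was the exception to the close spacing, since Itgax was above Xcr1 in 25 of 25 samples. Ccr4 had a count of 0 in 5 samples, Ccl19 in 6 and Flt3 in 1. In normal sample 71 a count of 0 for Ccr4 or Ccl19 allows up to 1.3 CPM, and in carcinoma in situ sample 84 it allows up to 0.318 CPM, both for counting error only. The expected counts of Ccl19, which has near-identical pseudogene copies, and of Itgax were not whole numbers in 18 samples each, so both shared reads with other genes and their values are uncertain for that reason.

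Total expected counts of the 25 samples ran from 2667387 to 16534728, with a median of 9075416, and median TIN (transcript integrity number, a measure of RNA quality) from 21.7 to 75.1. Thymocyte genes (Rag1, Rag2, Dntt and Arpp21, which mark immature T cells of the thymus) were high in 9 libraries and low in 16, with a mean log2 CPM of at least 4.29 in the first and at most 2.06 in the second. The 9 were normal samples 46, SM1, 2B, 81 and 70 and high-grade samples 47, 40, 82 and 75, or 5 of 7 normal, 0 of 5 mild and 4 of 13 high-grade samples. B cell markers exceeded 5 in 5 libraries (samples 70, 72, 73, 76 and 79), all whole lung. The LCM samples held the airway markers Krt5 (4.90 to 11.44 log2 CPM) and Scgb1a1 (8.52 to 17.50), and also the pan-leukocyte gene Ptprc (3.53 to 8.83) and the alveolar gene Sftpc (4.45 to 12.51). The differences of means are therefore given with and without the libraries high in thymocyte genes, and without them 2 normal samples remain (71 and 72). Both are SWR/J whole lung sections. The LCM samples of dysplasia that remain then have no LCM normal sample beside them, so those differences are not matched for sample type.

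**Figure D1:**
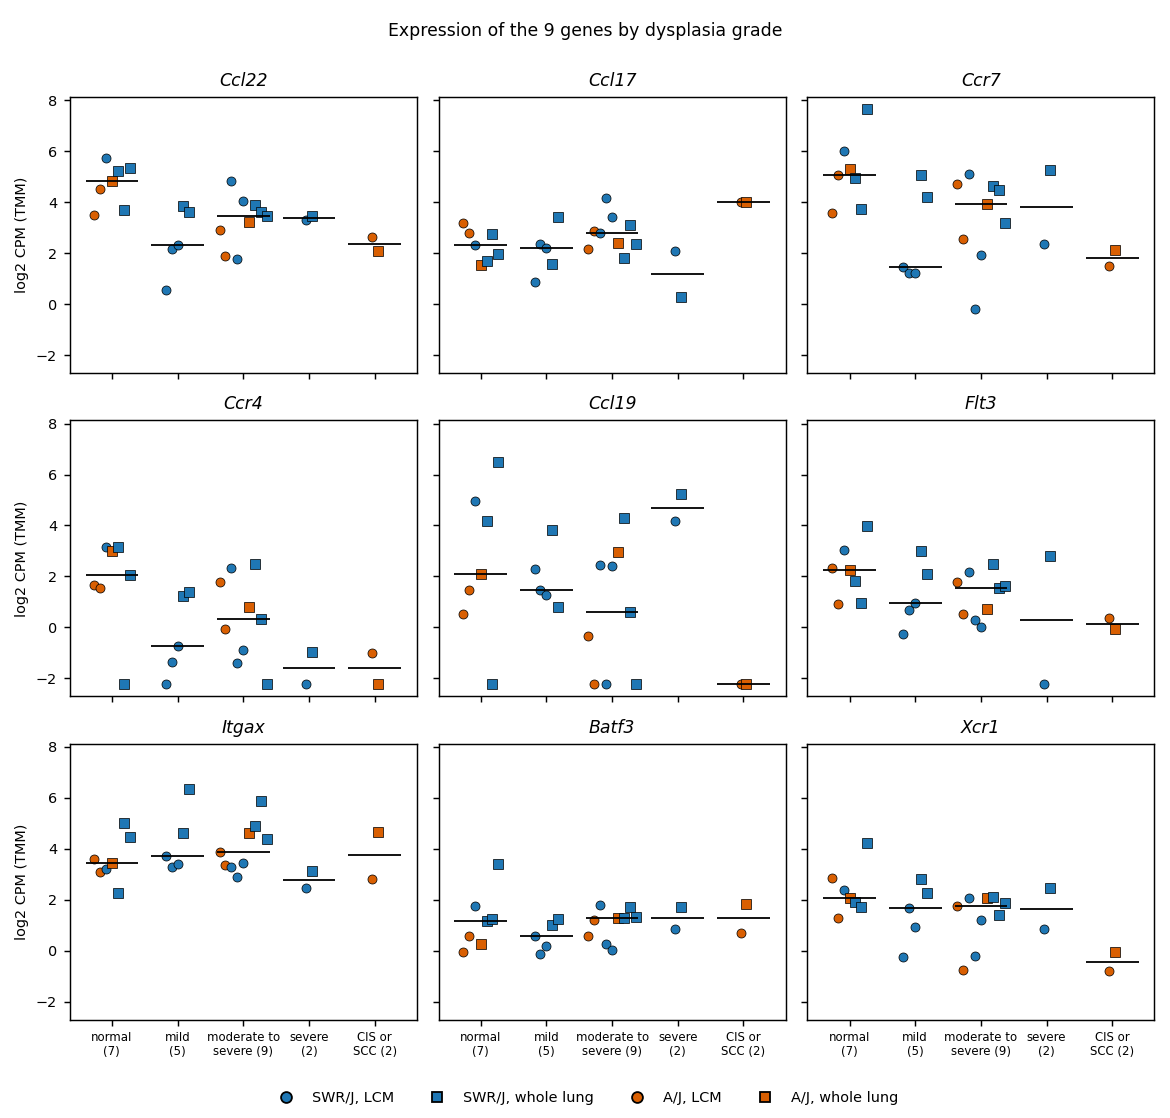
Level of each of the 9 genes (log2 CPM, vertical axis) in the 25 samples by dysplasia grade (horizontal axis, n in brackets). Each point is a sample, coloured by strain and shaped by sample type (LCM or whole lung), and the bar is the group median. Ccl22 sat between 3.50 and 5.74 in normal samples and Ccl17 was at 3.99 in both the carcinoma in situ and the SCC, while Ccr4 and Ccl19 reached the level of a count of 0 (−2.22).

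Ccl22 was lower in dysplastic than in normal samples. In the 7 normal samples its lowest, median and highest levels were 3.50, 4.83 and 5.74 log2 CPM. In mild dysplasia it was 0.57, 2.15 and 2.31 in LCM samples 5, 7 and 7c and 3.85 and 3.61 in whole lung samples 73 and 74. The 3 LCM samples were below every normal sample, and the whole lung samples lay just above the lowest of them. In the 13 high-grade samples the lowest, median and highest were 1.75, 3.31 and 4.85, and 9 of them were below the lowest normal sample. The groups overlapped all the same, through samples such as moderate to severe dysplasia sample 40 at 4.85. The SCC was at 2.65 and the carcinoma in situ at 2.09. Mean levels were 4.69 ± 0.85 (SD, n = 7) in normal, 2.50 ± 1.32 (n = 5) in mild and 3.16 ± 0.90 (n = 13) in high-grade samples. The differences of means from normal were −2.91 in LCM and −1.04 in whole lung for mild dysplasia, and −1.53 and −1.48 for high-grade samples. Without the libraries high in thymocyte genes they were −2.01 for mild and −1.59 for high-grade.

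Ccl17 did not share that pattern. Its lowest, median and highest levels were 1.54, 2.32 and 3.20 log2 CPM in normal samples. In mild dysplasia samples 5, 7, 7c, 73 and 74 it was 0.85, 2.36, 2.19, 1.57 and 3.42, which spans the normal range. In the high-grade samples it ran from 0.27 in severe dysplasia sample 79 to 4.16 in moderate to severe dysplasia sample 41, with a median of 2.80. The SCC and the carcinoma in situ were both at 3.99, and 4 of the 13 exceeded the highest normal sample. Mean levels were 2.33 ± 0.62 (SD, n = 7), 2.08 ± 0.96 (n = 5) and 2.72 ± 1.07 (n = 13) in normal, mild and high-grade samples. The differences from normal, −0.25 and 0.39, were smaller than these SDs, and were −0.27 and 0.56 without the libraries high in thymocyte genes.

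The log2 CPM of Ccl22 minus that of Ccl17 was smaller at the median in dysplasia than in normal samples. This difference had a median of 3.28 in normal samples (0.29 to 3.52), 0.12 in mild dysplasia (−0.28 to 2.28) and 0.76 in high-grade samples (−2.40 to 3.20). It was −1.34 in the SCC and −1.91 in the carcinoma in situ. Normal samples 46 and 71 were the low ones of their group at 0.29 and 0.93, and severe dysplasia sample 79 was the high one of its group at 3.20, so the ranges overlapped. The sign of these differences depends on the length of exon, which is 2325 bases for Ccl22 and 513 for Ccl17. Per length, the medians of Ccl22 and Ccl17 were 12.1 and 9.32 RPKM in normal, 2.03 and 8.45 in mild and 4.16 and 13.2 in high-grade samples. Over the 25 samples the 2 ligands had Pearson r = −0.15 and Spearman rho = −0.26. The r was −0.41 without the 2 samples farthest from the median of Ccl22, 0.19 in the 13 LCM samples and −0.49 in the 12 whole lung samples.

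Ccr4, the receptor of both ligands, was below the normal mean in 5 of 5 mild and 11 of 13 high-grade samples. It was at 1.67 and 1.56 log2 CPM in normal A/J LCM samples 46 and SM1, 3.14 in 2B, 3.0 in 81, 3.16 in 70 and 2.06 in 72, and had a count of 0 in 71. In mild dysplasia it had a count of 0 in sample 5 and was −1.36 in sample 7, −0.72 in 7c, 1.23 in 73 and 1.40 in 74. The high-grade samples had a median of −0.90, with counts of 0 in samples 78, 42 and 84 and the highest level, 2.48, in sample 75. Mean levels were 1.77 ± 1.89 (SD, n = 7), −0.33 ± 1.60 (n = 5) and −0.25 ± 1.69 (n = 13). Its median was 2.34 in the 9 libraries high in thymocyte genes and −0.98 in the other 16, with ranges of 0.80 to 3.16 and −2.22 to 2.06. The difference of means between mild and normal samples was −2.10 in all samples and −0.26 without those libraries, and between high-grade and normal samples −2.02 and −1.11. The normal mean without those libraries was −0.08 ± 3.03 (SD, n = 2), from sample 71 at a count of 0 and sample 72 at 2.06. The highest levels among the other samples left were 1.40 in mild and 0.31 in high-grade. These differences therefore rest largely on sample 71. Ccr4 also moved with RNA quality, with r = 0.57 between its level and median TIN.

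Ccr7 was lowest at the median in the microdissected dysplasias, with exceptions. Normal samples ran from 3.59 in sample 46 to 7.64 in sample 72, with a median of 5.07 log2 CPM. Mild dysplasia LCM samples 5, 7 and 7c were at 1.46, 1.22 and 1.21, below every normal sample, while whole lung samples 73 and 74 were at 5.08 and 4.21, inside the normal range. High-grade samples ran from −0.19 in LCM sample 41 to 5.28 in whole lung sample 79, with a median of 3.19, and 7 of 13 were below the lowest normal sample. LCM samples 40 and 47, both high in thymocyte genes, were at 5.12 and 4.70, inside the normal range. The whole lung carcinoma in situ, sample 84, was low at 2.12. Mean levels were 5.18 ± 1.38 (SD, n = 7), 2.64 ± 1.86 (n = 5) and 3.20 ± 1.65 (n = 13). The mean difference of mild from normal was −3.59 in LCM and −0.75 in whole lung, and that of high-grade from normal −2.32 and −1.46. Without the libraries high in thymocyte genes the differences were −3.05 and −3.10, and one of the 2 normal samples left was sample 72, the highest of all for Ccr7 and the one with the highest B cell markers (7.46 log2 CPM). In bulk samples, fewer cells of a type and less RNA per cell cannot be told apart.

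Ccl19, a CCR7 ligand made largely by lymphoid stromal cells, was the most variable of the 9. It ran from a count of 0 in normal sample 71 to 6.48 log2 CPM in normal sample 72, and from 0 counts in samples 48, 41, 78, 49 and 84 to 5.24 in severe dysplasia sample 79. The 2 severe dysplasias were both high (4.17 and 5.24), and the carcinoma in situ and SCC both had a count of 0. In mild dysplasia it stayed between 0.82 and 3.81. Mean levels were 2.50 ± 2.94 (SD, n = 7), 1.93 ± 1.18 (n = 5) and 0.82 ± 2.89 (n = 13), and the difference of high-grade from normal, −1.68, was smaller than the SDs of those groups. Without the libraries high in thymocyte genes the differences from normal were −0.20 for mild and −1.98 for high-grade, in place of −0.57 and −1.68.

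Xcr1 and Batf3, the cDC1 genes among the 9, differed in pattern. Xcr1 had lowest, median and highest levels of 1.29, 2.08 and 4.21 log2 CPM in normal samples, was −0.24, 1.68, 0.94, 2.83 and 2.25 in mild dysplasia samples 5, 7, 7c, 73 and 74, and ran from −0.81 in the SCC to 2.45 in severe dysplasia sample 79 with a median of 1.40. Of the 13 high-grade samples, 6 were below the lowest normal sample. The carcinoma in situ, at −0.06, was low as well. Batf3 differed less, with medians of 1.16 in normal, 0.57 in mild and 1.29 in high-grade samples and ranges of −0.06 to 3.40, −0.12 to 1.23 and 0.03 to 1.85. Its difference of means of high-grade from normal was −0.07 in all samples, −0.77 in SWR/J and 0.87 in A/J. Normal sample 72 was the highest sample for both genes. Leaving out the libraries high in thymocyte genes moved the difference of means from normal from −0.86 to −1.46 in mild and from −1.28 to −2.29 in high-grade samples for Xcr1. For Batf3 it went from −0.62 to −1.76 and from −0.07 to −1.25. The normal samples left, 71 and 72, were both whole lung, so these shifts were not matched for sample type.

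Flt3 and Itgax, the broader dendritic cell genes, differed in pattern. Flt3 had lowest, median and highest levels of 0.93, 2.26 and 3.99 log2 CPM in normal samples and was −0.24, 0.70, 0.94, 3.0 and 2.10 in mild dysplasia samples 5, 7, 7c, 73 and 74. In high-grade samples it ran from a count of 0 in sample 42 to 2.80 in sample 79, with a median of 0.72, and 7 of 13 were below the lowest normal sample. Itgax ran from 2.25 to 5.03 in normal samples with a median of 3.46, from 3.28 to 6.33 in mild dysplasia with a median of 3.72, and from 2.45 to 5.87 in high-grade samples with a median of 3.45. Its LCM samples lay between 2.45 and 3.86 whatever the grade, and its 4 highest values (6.33, 5.87, 5.03 and 4.91) were all in whole lung. The difference of means from normal turned round for Itgax without the libraries high in thymocyte genes, from 0.68 to −0.48 in mild and from 0.23 to −1.09 in high-grade samples. For Flt3 it went from −0.89 to −1.18 and from −1.26 to −1.93. The 2 normal samples left were whole lung, with Itgax at 5.03 in sample 71 and 4.48 in sample 72. In whole lung mild samples 73 and 74 Itgax was at 4.63 and 6.33. The differences without the libraries high in thymocyte genes were therefore not matched for sample type.

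Next, differences were fitted in edgeR (quasi-likelihood, log2 fold change ± SE), with strain, sample type and median TIN in the fit. Group medians of median TIN were 58.7 in normal, 57.8 in mild and 45.5 in high-grade samples. Per 10 units of median TIN the fitted slope was 1.5 ± 0.43 for Ccr4, 0.84 ± 0.24 for Ccr7 and 0.68 ± 0.20 for Flt3. Mild and high-grade dysplasia were compared with the same 7 normal samples. In mild dysplasia, where 12.6% of all 15630 genes were called at an adjusted p under 0.05, 3 of the 9 genes were called, all lower. The fitted difference was −2.91 ± 0.50 for Ccl22, −3.40 ± 0.79 for Ccr7 and −4.12 ± 1.15 for Ccr4. It was −1.76 ± 0.63 for Flt3, −1.32 ± 0.65 for Xcr1, −1.25 ± 0.48 for Batf3 and −2.46 ± 1.33 for Ccl19. Ccl17 at −0.11 ± 0.61 and Itgax at 0.76 ± 0.49 stood apart. The median of the 9 was −1.76, and that of all genes −0.03. Without any covariate the same differences were −1.99 for Ccl22, −2.22 for Ccr7 and −2.18 for Ccr4. No gene at all was called in that fit, and so 0 of the 9.

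The mild dysplasia values also moved with the sample set. With the thymocyte gene level as a further covariate Ccr4 was at −1.0, Ccl22 at −2.10 and Ccr7 at −2.58, and 1 of the 9 was called. The share of all genes called in that fit was also below the 12.6% given above. Without the libraries high in thymocyte genes Ccl22 was at −2.11 and Ccr7 at −2.80, and Ccr4 did not pass the filter. No gene at all was called in that fit, and so 0 of the 9. In whole lung alone, with 2 mild samples, Ccl17 was at 1.17 in place of −0.11. Leaving out any 1 sample kept Ccl22 between −3.07 and −2.64 and Ccr7 between −3.59 and −3.17. Ccl22 and Ccr7 were each called in 25 of these 25 fits, and Ccr4 in 18. These fits called between 663 and 3128 of all genes.

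In high-grade samples 0.0192% of all genes were called (3 of 15630) and 0 of the 9. At an unadjusted p under 0.05 edgeR called 1420 genes, and DESeq2 called 95 genes at its adjusted threshold, none of the 9 among them. The fitted difference was −1.13 ± 0.36 for Ccl22, −0.79 ± 0.57 for Ccr7, −0.81 ± 0.77 for Ccr4, −1.62 ± 1.25 for Ccl19, −0.90 ± 0.52 for Xcr1 and −0.49 ± 0.48 for Flt3. It was 0.76 ± 0.46 for Ccl17, 0.41 ± 0.37 for Itgax and 0.18 ± 0.39 for Batf3. Sample sets turned 2 of these round. Ccl19 was at 1.75 in whole lung alone and −3.65 in LCM alone, and Batf3 was at −1.05 without the libraries high in thymocyte genes. Ccr4 was at 0.01 with the thymocyte gene level as a covariate and Ccl22 at −0.38 without those libraries. Without median TIN as a covariate Ccr4 was at −1.77 and Ccr7 at −1.71. Over the rank of grade (0 for normal to 4 for carcinoma in situ or SCC), where 0.384% of genes were called and 0 of the 9, the slope per step was −0.48 for Ccl22, −0.46 for Ccr7, −0.73 for Ccr4 and 0.30 for Ccl17.

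**Figure D2:**
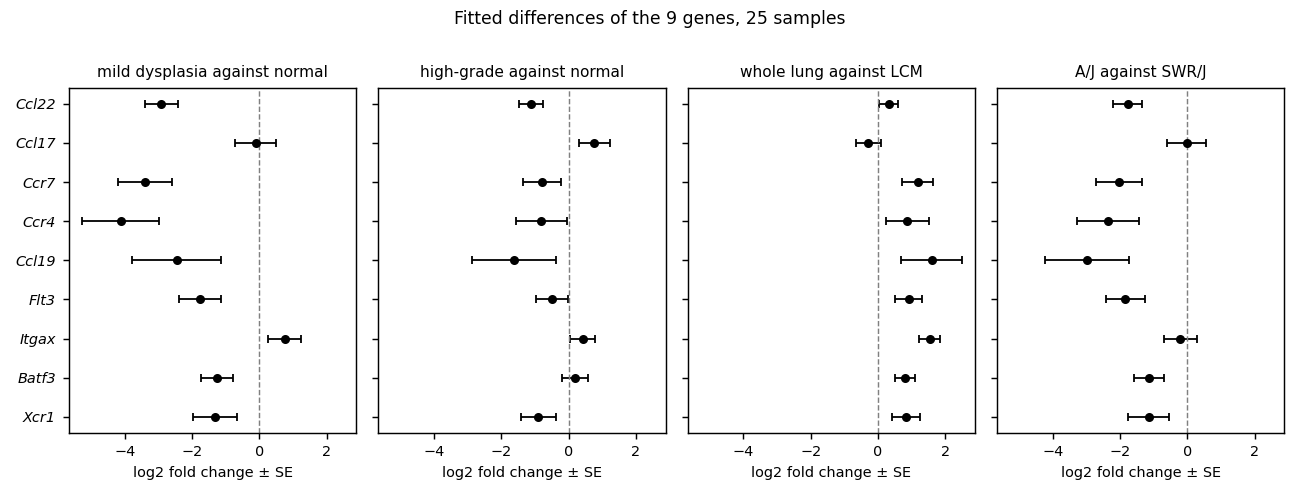
Fitted log2 fold change (horizontal axis) of each of the 9 genes in 4 comparisons over 25 samples. Points are edgeR estimates with histology, strain, sample type and median TIN in the fit, bars are ± 1 SE and the dashed line is no difference. Ccl22 (−2.91) and Ccr7 (−3.40) lie far left in mild dysplasia, and Ccl17 lies near 0 there. Itgax (1.53) and, with a wider bar, Ccl19 (1.59) lie to the right in whole lung.

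Itgax was higher in whole lung sections than in LCM samples. Whole lung samples had a median of 4.62 log2 CPM (2.25 to 6.33, n = 12) and LCM samples 3.30 (2.45 to 3.86, n = 13), and the fitted difference of whole lung from LCM was 1.53 ± 0.32. Ccr7 was at 4.55 in whole lung and 2.34 in LCM at the median, Flt3 at 1.96 and 0.70, Xcr1 at 2.07 and 1.21 and Batf3 at 1.29 and 0.58, all with overlapping ranges. Their fitted differences were 1.17 for Ccr7, 0.91 for Flt3, 0.82 for Xcr1 and 0.80 for Batf3. Ccl19 had the largest fitted difference of the 9, with a wide SE (1.59 ± 0.90), and Ccr4 was at 0.87 ± 0.64. Ccl22, at 0.32, and Ccl17, at −0.29, differed little between sources. In this comparison 14.6% of genes were called and 1 of the 9 (Itgax, higher). In A/J samples alone, 3 whole lung against 5 LCM, Ccr7 was at −1.97, Ccr4 at −2.0, Flt3 at −0.52 and Ccl17 at 1.07.

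Between strains, A/J samples were fitted lower than SWR/J samples for all 9 genes, but the unadjusted medians of Ccr4, Ccl17 and Itgax lay the other way. Ccl22 had a median of 3.07 log2 CPM in 8 A/J and 3.63 in 17 SWR/J samples, Ccr7 3.76 and 4.21, Flt3 0.83 and 1.63, and Ccl19 0.10 and 2.41. Ccr4 had 1.18 in A/J and −0.72 in SWR/J samples, Ccl17 2.84 and 2.32, and Itgax 3.53 and 3.45. The fitted difference of A/J from SWR/J was −1.77 ± 0.43 for Ccl22, −2.03 ± 0.68 for Ccr7, −1.85 ± 0.58 for Flt3, −2.36 for Ccr4 and −2.99 for Ccl19. Ccl17 was at −0.02 and Itgax at −0.21. In this comparison 1.02% of genes were called and 1 of the 9 (Ccl22, lower). With any 1 sample left out, Ccl22 was called in 4 of 25 fits, which called between 96 and 430 of all genes. The size depended on median TIN, since without median TIN the differences were −0.99 for Ccl22, −0.59 for Ccr7, −0.65 for Flt3 and −0.30 for Ccr4. The direction held for Ccl22, Ccr7, Ccr4, Ccl19, Flt3 and Xcr1 in each alternative fit that gave a value. Ccl17, Itgax and Batf3 turned positive in 3, 2 and 1 of 12 such fits, up to 0.90, 0.09 and 0.08.

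Across the 25 samples most pairs of the 9 genes were positively correlated, except the pairs with Ccl17. Among the 28 pairs without Ccl17 the median Pearson r was 0.52 and 26 were positive, and among the 8 pairs with Ccl17 it was −0.25 and 1 was positive (0.13, with Itgax). Itgax was loosely tied to the rest, with r between −0.13 and 0.36. The closest pair was Ccl22 and Ccr7, with r = 0.82 (Spearman rho = 0.80). It was 0.81 without the 2 samples farthest from the median of Ccl22, 0.79 in LCM, 0.82 in whole lung and 0.79 in the 16 libraries low in thymocyte genes. Flt3 and Xcr1 had r = 0.77 and rho = 0.91. The most negative pair was Ccl17 and Ccl19 with r = −0.66 and rho = −0.67. These points share libraries, depth and tissue composition, and no test is given.

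Marker genes of other cells moved with the same genes. Ccr7 followed the leukocyte markers (Ptprc, Coro1a, Laptm5 and Cd52) with r = 0.92 and rho = 0.91, and the airway epithelium markers with r = −0.75. Ccl22 followed the T cell markers with r = 0.81, and Ccr4 with r = 0.84. Ccr4 followed the thymocyte genes with r = 0.78 over 25 samples, 0.94 in LCM samples and 0.04 in the 16 libraries low in those genes. Itgax followed the macrophage markers with r = 0.83 over 25 samples, 0.34 in LCM and 0.86 in whole lung samples. With T cell markers its r was 0.01, 0.29 and −0.56 in the same sets. Ccl17 had r = −0.61 with B cell markers and −0.53 with leukocyte markers. The summed level of the 4 leukocyte genes was 277 to 3318 CPM in normal, 138 to 904 in mild and 70.1 to 1436 in high-grade samples. That of the 10 T cell genes was 218 to 4248, 38.5 to 201 and 22.5 to 2987 CPM. The part of these cells in the levels of the 9 genes was not tested.

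**Figure D3:**
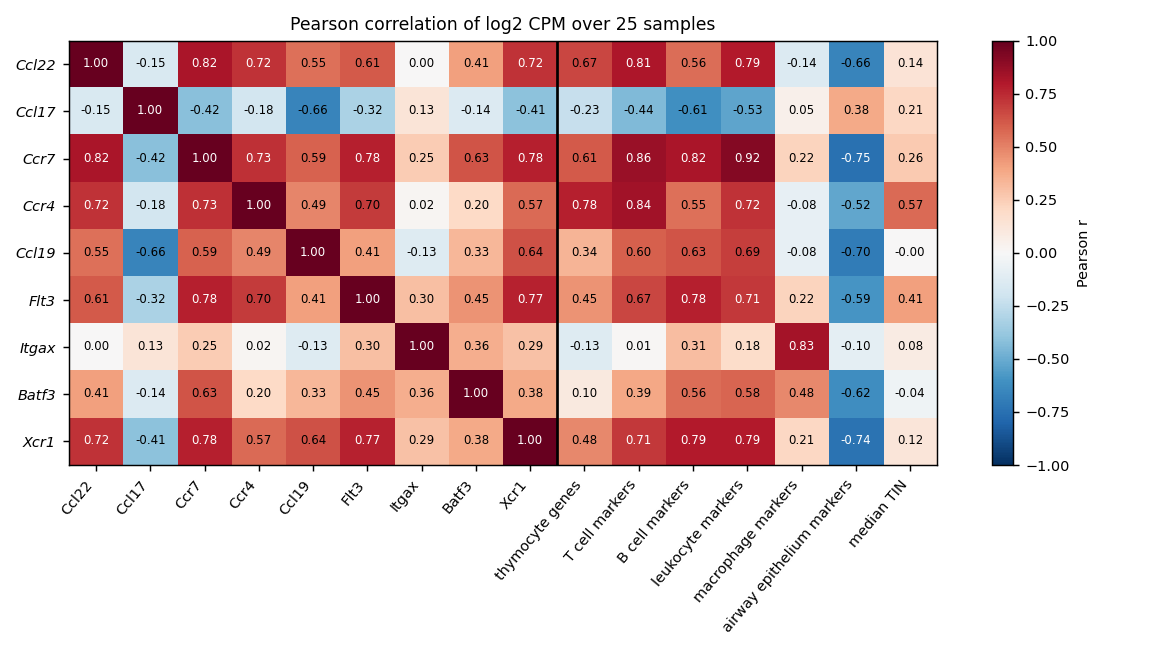
Pearson r of log2 CPM over 25 samples between the 9 genes (left block) and with the mean level of marker genes and median TIN (right block), coloured from −1 (blue) to 1 (red). Ccl17 has pale or blue cells against the other genes, from 0.13 to −0.66, and Ccr7 has its highest value, 0.92, with the leukocyte markers.

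**Figure D4:**
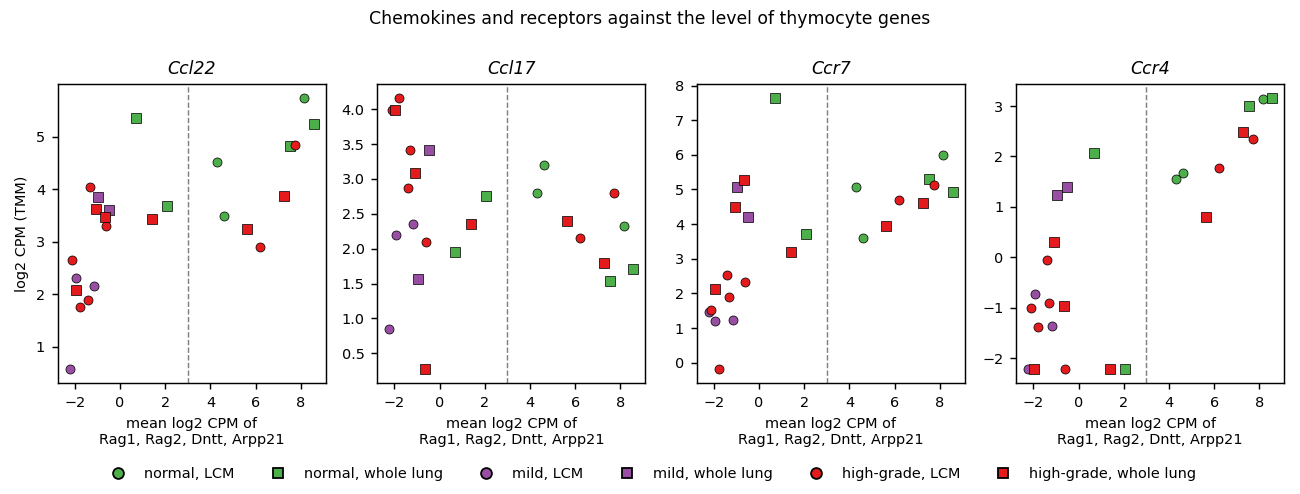
Levels of Ccl22, Ccl17, Ccr7 and Ccr4 (log2 CPM, vertical axes, each with its own scale) against the mean log2 CPM of Rag1, Rag2, Dntt and Arpp21 (horizontal axis) in 25 samples, coloured by histology and shaped by sample type. The dashed line is at 3. To its right are 5 normal, 4 high-grade and 0 mild samples, and all of these have Ccr4 at 0.80 or above.

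The genes most like each member, among tested genes whose average log2 CPM was 0 or more, were named by the highest Pearson r over the 25 samples. For Ccl22 they were Prkcq, a kinase of T cell receptor signalling (0.87), Rassf5 (0.86) and Gpr132 (0.86). Spn, the leukocyte sialophorin CD43 (0.95), Cytip (0.94) and Pik3cd, a leukocyte phosphoinositide kinase subunit (0.93), were the nearest to Ccr7. Ccr4 was most like Parp11 (0.95), the long noncoding RNA 2010300F17Rik (0.92) and Tlr12 (0.92). Itgax was most like F7 (0.88), Cadm1 (0.87) and Atp6v0d2 (0.87), and Xcr1 most like Traf1 (0.91), the B cell kinase Blk (0.87) and Ly9 (0.85). Ccl17 had weaker neighbours, led by Fdx1, the mitochondrial ferredoxin (0.80), 2900073G15Rik (0.73) and Ptpn9 (0.72).

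Other genes of the same pathways were read from lists that hold none of the 9. Of 19 tested homing ligands, receptors and partners, 1 fell in mild dysplasia and 0 rose, where 12.6% of all genes were called. It was Ccl5, a chemokine of T cells and natural killer cells, with a difference of −4.10 ± 0.91 (edgeR, adjusted p = 0.0162) and levels of 3.09 to 8.27 log2 CPM in normal and 0.98 to 3.89 in mild samples. Xcl1, the ligand of XCR1, had a total of 281 counts in the normal, 13 in the mild and 108 in the high-grade samples and did not pass the filter. Ccl21a, the other kind of CCR7 ligand, had medians of −0.89 in normal, −1.73 in mild and −2.05 log2 CPM in high-grade samples, and its highest levels were 5.70, 4.66 and 5.09. Of the further Ccl21 genes, Ccl21b had a count of 0 in every sample. Ccl21c had totals of 26 counts in normal, 85 in mild and 12 in high-grade samples, and did not pass the filter. Flt3l, the FLT3 ligand, had medians of 4.85, 4.89 and 4.20. Over the rank of grade Ccr1, a receptor of monocytes and neutrophils, rose by 0.72 ± 0.16 per step (edgeR, adjusted p = 0.0443). Its medians were 1.85 in normal, 3.67 in mild and 3.49 in high-grade samples. Itgam, an integrin chain of the cDC2 list that macrophages and neutrophils carry, rose by 0.71 ± 0.15 (edgeR, adjusted p = 0.0468). Its medians were 2.96, 4.08 and 3.77. Neither gene was higher in high-grade than in mild samples at the median.

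Of 18 tested genes of mature or migratory dendritic cells, 5 fell and 1 rose in mild dysplasia, with a median difference of −1.36, beside −0.03 over all genes and 12.6% of all genes called. The difference was −4.84 ± 0.88 for Apol7c (adjusted p = 0.0126), −1.78 ± 0.48 for the costimulatory receptor Cd40 (0.0269), −1.86 ± 0.51 for Tnfrsf4, which encodes the T cell costimulator OX40 (0.0275), and −1.74 ± 0.40 for Marcksl1 (0.0182), all in edgeR with adjustment over all genes. The remaining genes, named after their values were seen, were Traf1 (−1.81 ± 0.53, 0.0337) and, in the other direction, Socs2 (1.77 ± 0.51, 0.0319). Of the 10 genes of all conventional dendritic cells and antigen presentation, 4 fell and 0 rose. These were the class II genes H2-DMa (−1.59 ± 0.45, adjusted p = 0.0309), H2-Aa (−1.74 ± 0.52, 0.0364), H2-Eb1 (−1.73 ± 0.53, 0.0395) and H2-Ab1 (−1.46 ± 0.45, 0.0401), which B cells and macrophages also express. Of 9 cDC1 genes 1 rose, Tlr3, the sensor of double-stranded RNA (1.02 ± 0.29, 0.029), and none of 10 cDC2 genes was called. Of 8 plasmacytoid dendritic cell genes 1 rose, Tcf4 (0.70 ± 0.22, 0.0448), and 1 fell, Ccr9, a receptor that thymocytes share, from a median of 5.26 to 0.00 log2 CPM (0.0216). In high-grade samples none of these genes was called, nor was any other gene of the lists.

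The same comparison of mild dysplasia with normal, with 12.6% of all genes called, also called genes of the lymphoid lists. Of 10 thymus genes 10 fell, and Rag1 had a total of 28217 counts in the 7 normal and 11 in the 5 mild samples. Of 10 T cell genes 9 fell, among them Cd3d (−6.28 ± 1.44, adjusted p = 0.0182) and Lck (−6.31 ± 1.61, 0.0236) in edgeR. Of 8 B cell genes 1 fell, Blk (−3.01 ± 0.99, 0.0486), and of 4 leukocyte genes 2 fell, Cd52 (−2.87 ± 0.66, 0.0189) and Coro1a (−2.92 ± 0.81, 0.0288). No gene of the airway or alveolar epithelium lists was called, and the stromal genes Col3a1 (1.86 ± 0.45, 0.0207) and Pdgfra (1.39 ± 0.41, 0.0339) rose. Of 12 macrophage genes 1 rose, Siglec5 (3.63 ± 0.96, 0.0254), with levels of −2.22 to 2.08 log2 CPM in normal and 1.81 to 4.21 in mild samples. Without the libraries high in thymocyte genes no gene at all was called in this comparison.

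Between whole lung and LCM samples, where 14.6% of all genes were called, genes of the dendritic cell lists were called as well. Of 9 cDC1 genes 4 were higher, namely Clec9a, a receptor for dead cells (1.63 ± 0.44, adjusted p = 0.0178), Wdfy4 (1.41 ± 0.36, 0.0138), Cadm1 (1.27 ± 0.28, 0.00664) and the transcription factor Irf8 (1.12 ± 0.34, 0.0292). Of 10 genes of all conventional dendritic cells and antigen presentation 5 were higher, with the lineage factor Zbtb46 at 0.94 ± 0.20 (0.00563) and the invariant chain Cd74 at 1.43 ± 0.31 (0.00625). Of 18 mature or migratory genes 4 were higher, led by Fscn1, the actin bundler of mature dendritic cells (1.22 ± 0.23, 0.00255), and Cd40 (1.23 ± 0.30, 0.0106). Of 19 homing genes 5 were higher, among them the scavenging receptor Ccbp2 (2.02 ± 0.40, 0.00397), and 1 was lower, Ccl20, an epithelial chemokine (−2.14 ± 0.63, 0.0256), named after its value was seen. The cDC2 list had 1 of 10 higher, Sirpa (1.17 ± 0.18, 0.0012). The B cell list had 6 of 8 and the macrophage list 5 of 12 higher in the same comparison. P-values are from edgeR, adjusted over all genes.

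Between strains the class II genes split. H2-Eb1 was higher in A/J than in SWR/J samples by 2.33 ± 0.49 (edgeR, adjusted p = 0.017), while H2-Aa (−2.33 ± 0.50, 0.0171) and H2-Ab1 (−1.91 ± 0.42, 0.0216) were lower. Apol7c had a difference of A/J from SWR/J of −7.65 ± 0.82 (4.82e-06), with levels of −2.22 to −0.85 log2 CPM in A/J and −2.22 to 6.32 in SWR/J samples. Reads of both strains were aligned to mm9, and whether differences of sequence between the strains changed these counts was not tested. None of 19 homing genes, 9 cDC1 genes or 10 cDC2 genes was called between strains.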

How the data were processed

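RNA from whole lung sections and LCM tissue was made into TruSeq libraries, and the authors trimmed single-end reads of 50 nucleotides with Trimmomatic, aligned them to mm9 with STAR and deposited RSEM expected counts per Ensembl gene, with no normalization. The expected counts were rounded to whole numbers. Symbols and positions came from the NCBIM37 annotation. Samples were grouped by the dysplasia grade label, and the 25 labelled as passing quality control were compared.

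The robust quasi-likelihood test of edgeR 4.0.16 (R 4.3.3) was run on TMM-scaled counts of the 15630 genes with an interquartile range above 0 and a sum above 1 of log2 CPM, with strain, sample type and median TIN in the design. The filter follows the study's methods, but the prior count behind it is not given in the sources used here, and 2 was used. A prior count of 0.25, an alternative, leaves the number of genes that the study's text gives. Benjamini-Hochberg adjustment ran over all tested genes (threshold 0.05). The SE is the fold change divided by the root of F. DESeq2 1.42.0 was an alternative. Scripts were tested on simulated data. Tables and plots used Python 3.11.15, pandas 2.3.3, numpy 2.4.6, scipy 1.17.1 and matplotlib 3.10.9. The 9 genes and all lists were chosen with earlier results of these data known. From each further list up to 4 called genes per comparison, by smallest p, could be named. Levels of Xcl1, Ccl21a, Ccl21b, Ccl21c, Flt3l and Rag1 were added after their values were seen. Intervals cover counting error only. Samples that failed quality control are given as values alone.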

Additional observations from a re-analysis of the deposited data

Results flagged for a closer look

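Libraries that did not pass quality control were outside every comparison. These 15 libraries held 17051 to 1965373 counts, and their levels are given beside those of the 3 failed normal libraries pooled (1805094 counts), all SWR/J LCM samples, with exact 95% Poisson intervals for counting error. The SCC library 83, which is A/J whole lung and so differs from them in strain and sample type, had Ccl22 at 270 CPM (211 to 341; pooled normal 17.2, 11.7 to 24.4), Ccr7 at 399 (327 to 484; 6.65, 3.44 to 11.6), Ccl19 at 582 (interval up to 682; 3.88, 1.56 to 7.99), Ccl17 at 34.2 (15.7 to 65; 4.43, 1.91 to 8.73) and Flt3 at 38 (18.2 to 70; 1.66, 0.343 to 4.86). The severe dysplasia library 25 had Ccl22 and Ccl17 both at 36.1 CPM (24.5 to 51.3) and Ccr7 at 67.6 (51.3 to 87.3). The normal samples that passed quality control had Ccl22 at 11.1 to 53.2 CPM and Ccr7 at 11.8 to 199, on TMM-scaled library sizes. Library 25 lies inside both of these ranges. For Ccl17 their range was 2.7 to 8.99 CPM, below library 25. Ccl17 was also above the pooled normal level in library 8 (grade label mild dysplasia, but called normal in its written description) at 39 CPM (16.9 to 76.9, from 8 counts) and in the moderate to severe dysplasia library 20 at 24.4 (8.95 to 53.1, from 6 counts), where Flt3 was at 48.8 (25.2 to 85.2). Other failed dysplasia libraries had intervals below the pooled normal one. Ccl22 was at 1.63 CPM (0.197 to 5.87) in LCM library 13B, 0 (0 to 3.24) in whole lung library 77 and 1.02 (0.123 to 3.68) in whole lung library 80. Ccr7 was at 0 (0 to 3.24) in library 77, and Ccl17 at 0 (0 to 1.88) in library 80. The other intervals overlapped those of the pooled normal libraries.

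Ccr4 in normal sample 71 was apart from the other 6 normal samples at −2.22 log2 CPM, the level that the prior count gives to a count of 0. In this library of 3447363 counts a count of 0 allows up to 1.3 CPM, and the next normal sample, SM1, was at 2.74 CPM. Sample 71 also had the lowest median TIN of the normal samples, 28.9. It was the only sample set apart in this way among 27 groups checked, and chance sets apart about 1 group in 20. The difference of high-grade from normal means of Batf3 was −0.77 in SWR/J and 0.87 in A/J, and this difference between strains was not tested.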

How the results depend on the processing

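No paired analysis was possible because the replicate names are sample numbers that no groups share. The number of called genes depended strongly on the sample set and covariates. For high-grade against normal (3 genes) it was 95 in DESeq2, 1 without a filter, 5 without median TIN, 6 without the samples with conflicting histology labels, and 0 with no covariates, in either strain, in either sample type, without libraries high in thymocyte or B cell genes, and with the thymocyte level as a covariate. For mild dysplasia (1967) it was 3652 in DESeq2, 991 without the conflicting labels, 266 with the thymocyte covariate, 28 without libraries high in B cell genes, and 0 with no covariates, in either sample type or without libraries high in thymocyte genes. For the rank of grade (60) it was 535 in DESeq2, 39 with RLE size factors, 174 without median TIN, 178 with no covariates, 1 in A/J, and 0 in SWR/J, in either sample type, and with either thymocyte alternative. For whole lung against LCM (2289) it was 586 in SWR/J, 0 in A/J, 1303 without the conflicting labels, and 398 and 1117 without libraries high in thymocyte or B cell genes. For A/J against SWR/J (159) it was 960 in DESeq2, 254 without a filter, 2553 without median TIN, 14 in LCM, 13 in whole lung, 14 and 56 without libraries high in thymocyte or B cell genes, and 269 with the thymocyte covariate. The cause of these changes was not tested. The alternatives on thymocyte and B cell genes were added after the data were seen.

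Leaving out 1 sample gave 0 (without normal 2B) to 6 (without normal SM1) genes for high-grade, 663 (2B) to 3128 (normal 46) for mild dysplasia, 1 (SCC 49) to 190 (normal 71) for the rank, 1488 (41) to 2567 (72) for sample type and 96 (40) to 430 (76) for strain. Other scalings shifted the median of all genes by at most 0.05 on the log2 scale. In DESeq2 the share of called genes that were higher was 83.2% in place of 66.7% for high-grade, 51.4% in place of 88.3% for the rank and 54.9% in place of 35.8% for strain, and with RLE 50% for high-grade. A filter with a prior count of 0.25 left 14897 genes and removed Ccr4.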
